A study of Mus musculus with 8 samples.

Results

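Smooth muscle contractile genes were examined in whole mouse stomachs collected 3 days after surgery. The set held 33 genes of the gastric muscle wall, chosen by gene name for contraction, filaments, adhesion and calcium, out of 24481 named genes in the deposited table. The choice was made with earlier results of these data known, so counts of members beside all tested genes are descriptions. All mice were female, wild-type and of the C57BL/6J background, and total RNA was sequenced. In 1 group the adrenals had been removed (adrenalectomy, 4 samples), and the other had sham surgery (4 samples). The labels give no age, do not say that each sample is 1 animal, and name no steroid replacement. P-values therefore measure the spread between these samples, which may be technical. Adrenalectomy takes away adrenal glucocorticoids, aldosterone and adrenaline together, so the comparison cannot assign a difference to 1 hormone.

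In smooth muscle, calcium enters through voltage-gated channels, binds calmodulin and activates myosin light chain kinase, and the phosphorylated myosin then pulls on actin filaments anchored at dense bodies and membrane plaques. Myosin phosphatase reverses the step. The stomach wall uses this machinery for accommodation, mixing and emptying, and the vessels of the mucosa use it to set blood flow. Most genes of the machinery share a regulator, serum response factor (SRF), which binds a sequence known as the CArG box and is boosted in muscle by its partner myocardin.

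The CArG box is a run of 10 bases, a C pair, A or T bases, and a G pair. It was searched on both strands in RefSeq promoters, 250 bases before to 50 after each start (build GRCm38.p6, which is not the authors' mm9). The promoter table held 29 of the 33 members, and Tagln, Myocd, Actg2 and Myh11 had no entry. An exact box lay in the promoters of 5 of the 29 members, Srf, Myl9, Vcl, Ldb3 and Myl6, or 17.2%, against 1.81% of 27025 genes in the table. With up to 1 mismatch, 15 of the 29 members had a match, or 51.7%, against 23.8% of all genes. The stretches below are shown because they hold exact boxes, which most members with a promoter lack, or, for Acta2, the near matches of a main actin gene of the set. Capitals mark exact boxes, and in the Acta2 stretches they mark sites with 1 mismatch. Each stretch runs 5′ to 3′ on the gene's own strand.
Srf, chr17:46556188-46556282, minus strand: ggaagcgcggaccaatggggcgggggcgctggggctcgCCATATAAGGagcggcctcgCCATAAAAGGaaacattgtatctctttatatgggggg
Myl9, chr2:156775264-156775403, plus strand: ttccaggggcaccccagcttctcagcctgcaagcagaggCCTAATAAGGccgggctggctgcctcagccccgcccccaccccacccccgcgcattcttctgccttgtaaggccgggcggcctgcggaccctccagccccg
Vcl, chr14:20929148-20929247, plus strand: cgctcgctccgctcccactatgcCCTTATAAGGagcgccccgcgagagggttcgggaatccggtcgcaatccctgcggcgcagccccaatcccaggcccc
Ldb3, chr14:34588697-34588726, minus strand: gggttacagtCCATTTATGGgcgcagcaag
Myl6, chr10:128493040-128493069, minus strand: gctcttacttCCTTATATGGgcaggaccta
Acta2, chr19:34255438-34255467, minus strand: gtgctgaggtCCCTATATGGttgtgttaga
Acta2, chr19:34255388-34255417, minus strand: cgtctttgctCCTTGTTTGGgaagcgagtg
The Srf promoter held 2 exact boxes, which began 82 and 62 bases before the start. The box of Myl9 began 161 bases before the start and that of Vcl 227. A match is a description of these letters and does not show binding.

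All 33 members passed the filter on low values, a mean linear value of at least 10 over the 8 samples. Single deposited log2 values ran from 8.63, for Ppp1r14a in sham 1, to 17.12, for Myh11 in sham 2. Per kilobase of merged exon (GENCODE M21 lengths), the most abundant members were Tagln, at 15.39 after adrenalectomy and 15.59 in sham samples, and Acta2, at 15.48 after adrenalectomy and 15.56 in sham samples. Actg2 followed in sham samples, at 15.22 after adrenalectomy and 15.39 in sham samples. These are levels on the log2 scale. Tagln and Acta2 lay closer together in sham samples than the spread of Acta2 between them. The non-muscle actin genes stood above every member on that scale, Actg1 at 17.08 after adrenalectomy and 17.00 in sham samples, and Actb at 16.14 after adrenalectomy and 16.08 in sham samples.

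Markers of other tissues differed between samples. The 23 markers of striated muscle had a summed log2 level of 12.38 to 12.44 in the adrenalectomy samples and 12.56 to 14.62 in the sham samples, where sham 2 and sham 3 both stood at 14.62. Their mean log2 value was 6.71 to 6.78 after adrenalectomy and 6.74 to 8.71 in sham samples. On that measure the groups overlapped. The defining skeletal muscle gene Acta1 was at 7.81 to 8.35 after adrenalectomy, against 7.73 and 8.50 in sham 1 and sham 4 and 12.65 and 12.55 in sham 2 and sham 3, and none of the 23 markers was at 0. The 17 squamous markers, of the forestomach lining, summed to 15.36 to 17.13 after adrenalectomy and 16.20 to 18.06 in sham samples, again highest in sham 2 and sham 3. The 14 liver markers summed to 18.92 in adrenalectomy 1, against 16.80 to 17.23 in the other adrenalectomy samples and 16.78 to 17.32 in sham samples. Apoa1, which the stomach samples held at 16.64 or more throughout, takes most of that sum in every sample but adrenalectomy 1. The mean log2 value over the liver markers was 13.96, 11.22, 9.99 and 8.80 in adrenalectomy samples 1 to 4, against 8.69, 8.74, 8.75 and 11.13 in sham samples 1 to 4, so it was also high in adrenalectomy 2, adrenalectomy 3 and sham 4. The defining liver gene Alb was at 17.69, 14.28, 12.57 and 9.39 after adrenalectomy, against 8.83, 8.79, 9.06 and 14.16 in sham samples. Results are also given without adrenalectomy 1, sham 2 and sham 3, which leaves 3 adrenalectomy and 2 sham samples, adrenalectomy 2, adrenalectomy 3 and sham 4 among them. The part of the liver markers in the results was not tested beyond leaving out samples. Sequencing depth is unknown because the table holds no counts.

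Of the contractile genes, Myh11, Tagln and Tpm2 fell after adrenalectomy, by 12.2% to 17.0% on the linear scale, and no member rose (limma, Benjamini-Hochberg adjusted p under 0.05 over 16889 tested genes). That is 3 of 33 members called, where 1.71% of all tested genes were, with 3 called lower, where 0.782% of all tested genes were called lower, and 0 of 33 called higher, where 0.93% were. Means were lower after adrenalectomy in 31 of 33 members, against 50.5% of tested genes. The median log2 difference, adrenalectomy minus sham, was -0.12 over the members, in a range of -0.42 to 0.02, and -0.00 over all tested genes. At an unadjusted p under 0.05, 12 members were lower, against 9.48% of tested genes, and 0 were higher, against 9.73%. In whole stomach, fewer muscle cells and less RNA per muscle cell cannot be told apart.

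**Figure D1:**
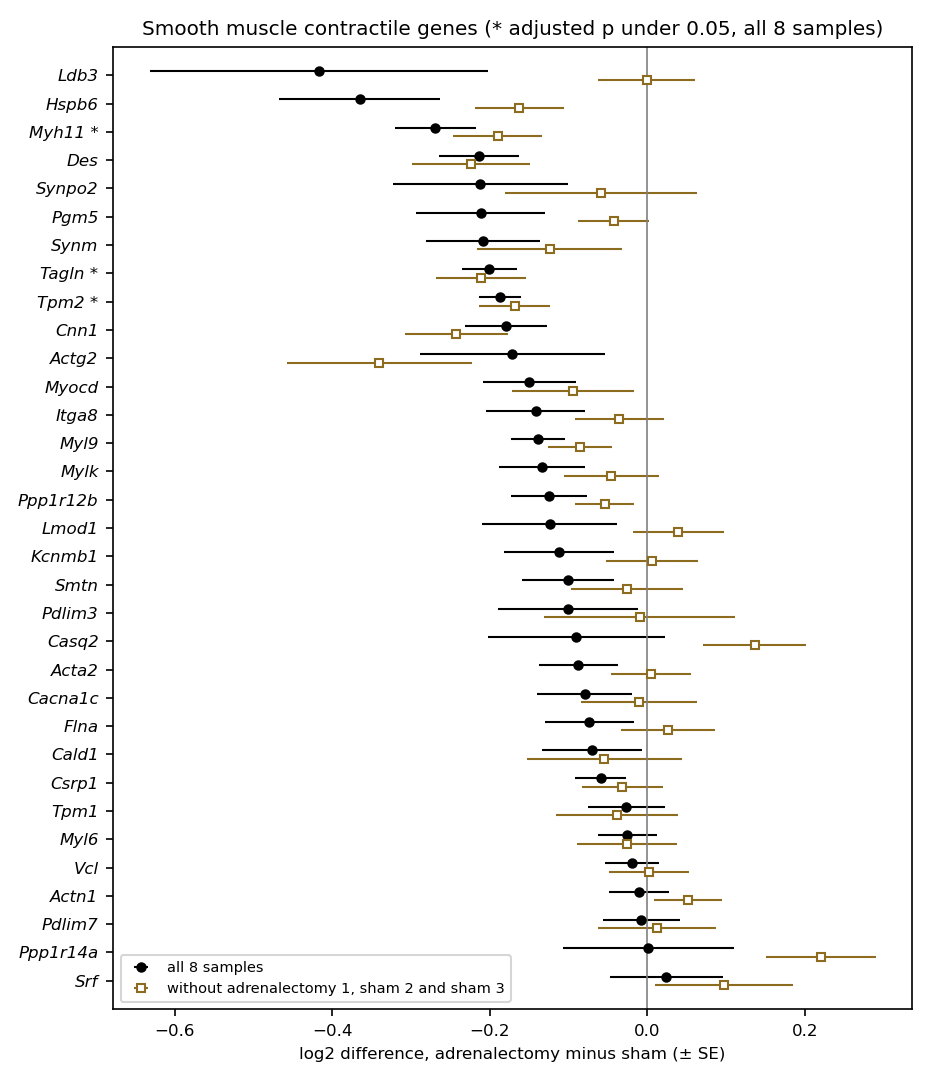
Log2 difference (adrenalectomy minus sham) of the 33 members on the x axis, with the standard error of the fit, for all 8 samples (filled circles) and without adrenalectomy 1, sham 2 and sham 3 (open squares). Tpm2, Tagln, Myh11, Des and Cnn1 stay left of 0 in both, whereas Ldb3, at -0.42 with all samples, lies at 0 without the 3 samples.

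Without those 3 samples, limma called 0 of 16889 genes and so 0 members. Means were lower in 23 of 33 members, against 53% of all genes, and the members' median was -0.04, against -0.0052 for all genes. At an unadjusted p under 0.05, 7 members were lower and 1 higher, against 5.53% and 5.26% of all genes. With the striated muscle score as a covariate, limma called 4 genes, or 0.0237% of those tested, with 0.0118% in each direction, and 0 of them were members. Means were then lower in 24 members, against 50.4% of all genes, 8 members were lower and 1 higher at an unadjusted p under 0.05, against 7.29% and 5.96%, and the members' median was -0.04.

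Tpm2 encodes beta-tropomyosin, which lies along the actin filament and gates myosin binding. Its log2 values were 15.63, 15.66, 15.66 and 15.60 in adrenalectomy samples 1 to 4, against 15.80, 15.83, 15.85 and 15.81 in sham samples 1 to 4. All adrenalectomy samples lay below all sham samples, and the spread within each group was small. The log2 difference was -0.19 ± 0.027 (SE, n = 4 each, limma adjusted p = 0.0250), and -0.17 without adrenalectomy 1, sham 2 and sham 3 (limma unadjusted p = 0.0112, adjusted p = 0.402).

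Tagln encodes transgelin, or SM22, an actin-binding protein that marks differentiated smooth muscle. It stood at 16.06, 16.07, 16.13 and 16.00 after adrenalectomy, against 16.26, 16.23, 16.28 and 16.30 in sham samples. The groups did not overlap, and the 2 sham samples with high striated markers were not set apart from the others. Exons of Tagln overlap a predicted gene by 404 bases and Pcsk7 by 94, both on the opposite strand, in GENCODE M21. The strand setting of the counting is not given in the sources used here, so reads of overlapping genes cannot be told apart. Its difference on the log2 scale was -0.20 ± 0.035 (SE, n = 4 each, limma adjusted p = 0.0393), and -0.21 without the 3 samples.

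Myh11 encodes the smooth muscle myosin heavy chain, the motor of the contractile filament. Its values were 16.66, 16.77, 16.80 and 16.74 after adrenalectomy, against 16.97, 17.12, 17.00 and 16.95 in sham samples. Sham 2 was the highest sample and the groups did not overlap. The fitted log2 difference was -0.27 ± 0.051 (SE, n = 4 each, limma adjusted p = 0.0476), and -0.19 without the 3 samples. Leaving out any 1 sample other than sham 1 ended all 3 calls, with limma adjusted p of 0.0575 to 0.0970 for Tpm2, 0.0681 to 0.123 for Tagln and 0.0727 to 0.136 for Myh11, while the differences themselves stayed between -0.17 and -0.29.

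**Figure D2:**
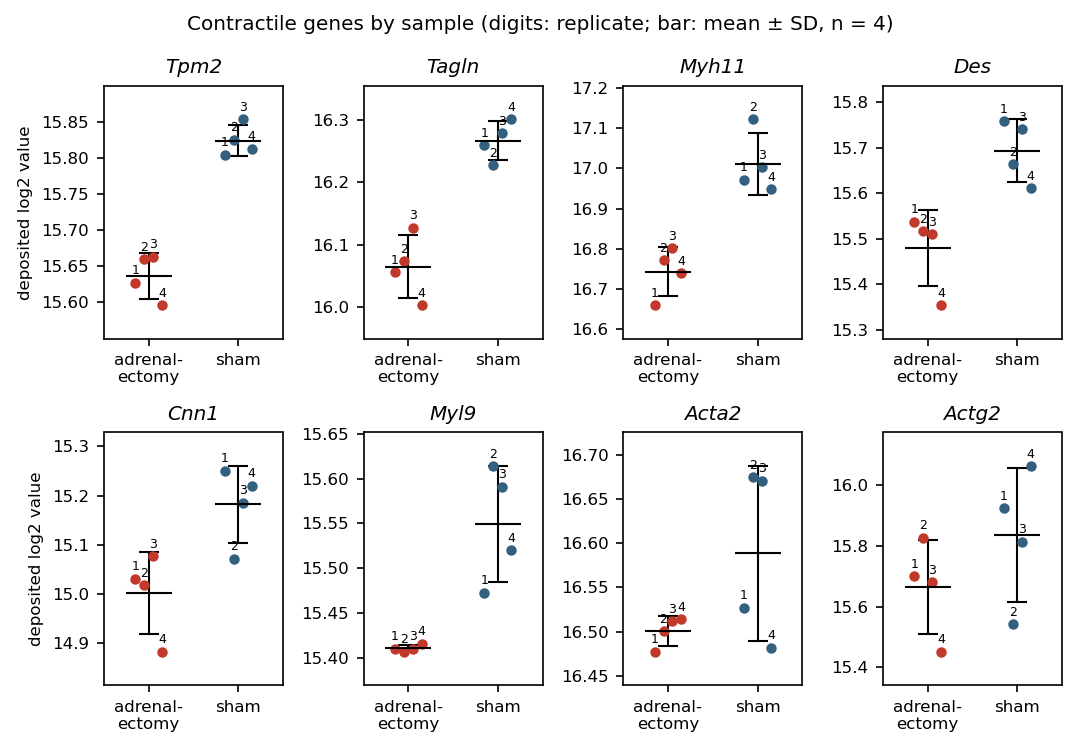
Deposited log2 values of 8 contractile genes in each adrenalectomy sample (left, red) and sham sample (right, blue), with the replicate number beside each point and the mean ± SD of 4 samples as bars. The groups are apart for Tpm2, Tagln, Myh11, Des and Myl9 and overlap for Cnn1, Acta2 and Actg2.

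Desmin and calponin had differences of similar size that did not pass. Des encodes the intermediate filament that ties dense bodies together in muscle. It was at 15.54, 15.52, 15.51 and 15.35 after adrenalectomy, against 15.76, 15.66, 15.74 and 15.61 in sham samples, with no overlap and with adrenalectomy 4 lowest. Its log2 difference was -0.21 ± 0.051 (SE, limma adjusted p = 0.0803) and -0.22 without the 3 samples. Of the 33 members, 11, Tagln and Des among them, have exons that overlap another gene, and in Des the overlap is 220 bases with a predicted gene on the opposite strand.

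Cnn1 encodes calponin, an actin-binding inhibitor of the myosin motor that is found in differentiated smooth muscle. Its values were 15.03, 15.02, 15.08 and 14.88 after adrenalectomy, against 15.25, 15.07, 15.19 and 15.22 in sham samples. Adrenalectomy 3 and sham 2 overlapped by a small margin. On the log2 scale the difference was -0.18 ± 0.053 (SE, limma adjusted p = 0.125), and -0.24 without the 3 samples.

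The smooth muscle actins, the most abundant thin filament genes of the set per kilobase beside Tagln, were not called and differed from each other across samples. Acta2, the vascular and general smooth muscle actin, was at 16.48, 16.50, 16.51 and 16.51 after adrenalectomy, against 16.53, 16.67, 16.67 and 16.48 in sham samples. Sham 2 and sham 3 were high and sham 4 was as low as the adrenalectomy samples. The log2 difference was -0.09 ± 0.050 (SE, limma adjusted p = 0.375), and 0.0043 without the 3 samples.

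Actg2, the actin of visceral muscle, was at 15.70, 15.83, 15.68 and 15.45 after adrenalectomy, against 15.92, 15.54, 15.81 and 16.06 in sham samples. Here sham 2 was the lowest sham sample and sham 4 the highest, the reverse of Acta2. Its difference on the log2 scale was -0.17 ± 0.12 (SE, limma adjusted p = 0.458), and -0.34 ± 0.12 (SE) without the 3 samples, where the groups did not overlap (limma unadjusted p = 0.0295, adjusted p = 0.421). Actg2 minus Acta2, the log2 ratio of the 2 actins within a sample, averaged -0.84 ± 0.16 after adrenalectomy and -0.75 ± 0.31 in sham samples (SD, n = 4 each). Actin proteins are near-identical, and their genes are similar in coding sequence. How any reads shared between actin genes were divided is not given in the sources used here.

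Other thin filament genes did not pass either. Tpm1, alpha-tropomyosin, stood at 16.73 to 16.88 after adrenalectomy and 16.76 to 16.90 in sham samples, a log2 difference of -0.03 ± 0.049 (SE, limma adjusted p = 0.795), and -0.04 without the 3 samples. Tpm2 minus Tpm1 within a sample was -1.21 to -1.10 after adrenalectomy and -1.09 to -0.93 in sham samples, so the ratio of the 2 tropomyosins, as log2, lay lower in all adrenalectomy samples. Cald1, caldesmon, which restrains the motor on the thin filament, differed by -0.07, and by -0.05 without them. Lmod1, leiomodin, which nucleates actin filaments in smooth muscle, was at 12.44, 12.44, 12.54 and 12.56 after adrenalectomy, against 12.54, 12.83, 12.69 and 12.41 in sham samples, and its log2 difference was -0.12, and 0.04 without the 3 samples. Smtn, smoothelin, a marker of contractile smooth muscle, differed by -0.10, and by -0.03 without them.

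The myosin light chains and their kinase and phosphatase come next. Myl9, the regulatory light chain that the kinase phosphorylates, was at 15.41, 15.41, 15.41 and 15.42 after adrenalectomy, against 15.47, 15.61, 15.59 and 15.52 in sham samples. The groups did not overlap, and sham 2 and sham 3 were highest. The gene's log2 difference was -0.14 ± 0.034 (SE, limma adjusted p = 0.0878), and -0.09 without the 3 samples. Myl6, the essential light chain that smooth and non-muscle myosins share, differed by -0.03, with and without them.

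Mylk, the light chain kinase, was at 15.24 to 15.30 after adrenalectomy and 15.24 to 15.51 in sham samples, with a log2 difference of -0.13 (limma adjusted p = 0.238), and -0.05 without the 3 samples. Ppp1r12b, a myosin-targeting subunit of the phosphatase, was at 11.03 to 11.09 after adrenalectomy and 11.12 to 11.33 in sham samples, without overlap. This gave a log2 difference of -0.12 (limma adjusted p = 0.213), and -0.05 without them.

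Ppp1r14a encodes CPI-17, the phosphatase inhibitor that sensitizes the filaments to calcium. It was at 8.75, 8.86, 8.83 and 8.98 after adrenalectomy, against 8.63, 9.11, 8.96 and 8.71 in sham samples. With all samples the log2 difference was 0.00095 ± 0.11 (SE), and without the 3 samples it was 0.22 ± 0.07 (SE, limma unadjusted p = 0.0210, adjusted p = 0.420), with the adrenalectomy samples all higher. It was the only member with an unadjusted p under 0.05 in the higher direction in that fit.

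In all, 7 members had adrenalectomy samples entirely below the sham samples, Myh11, Tagln, Tpm2, Des, Myl9, Hspb6 and Ppp1r12b, where 6.13% of tested genes did, and 0 members lay entirely above, where 6.3% of tested genes did. Without the 3 samples, 9 members lay below, against 15.4% of all genes, and Casq2 and Ppp1r14a lay above, against 14.1%.

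**Figure D3:**
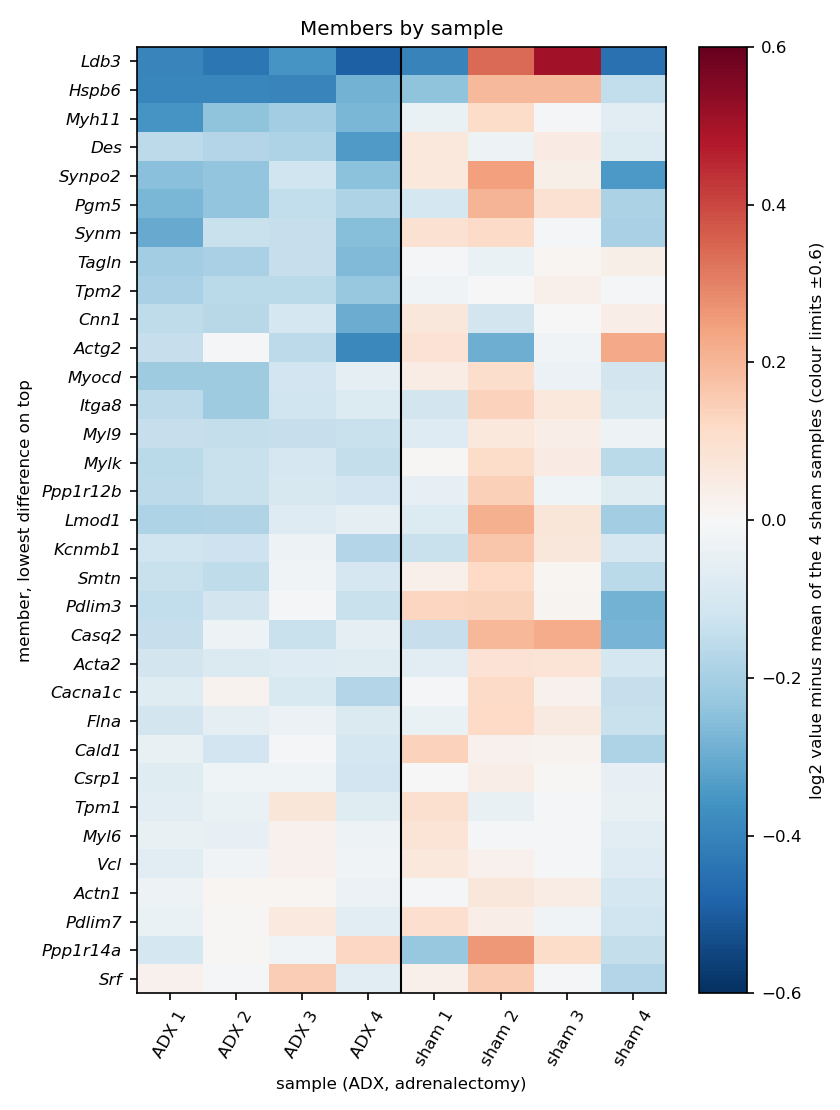
Each member's log2 value minus the mean of its 4 sham samples, by sample, adrenalectomy samples left of the line and sham samples right, with members ordered by their difference. The adrenalectomy columns are mostly blue, sham 2 is mostly red, and sham 4 is blue for many members.

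Sham samples varied more than adrenalectomy samples. The range over sham samples was the wider one in 27 of 33 members, or 81.8%, against 61.9% of all tested genes. The median SD of a member was 0.056 after adrenalectomy and 0.11 in sham samples, against 0.049 and 0.061 for all tested genes in the same groups. Sham 2 was the highest of the 8 samples in 20 members, and sham 4 the lowest of the 8 in 13 members and the lowest sham sample in 23.

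Several members were highest in sham 2 and sham 3. Ldb3 encodes a Z-disc PDZ and LIM protein of striated muscle, and was the member with the lowest difference. It stood at 9.49, 9.45, 9.53 and 9.39 after adrenalectomy, against 9.48, 10.22, 10.39 and 9.44 in sham samples. Sham 2 and sham 3, the samples with high striated markers, stood above the other 6. The fitted log2 difference was -0.42 ± 0.21 (SE, limma adjusted p = 0.330), -0.0010 without the 3 samples and 0.04 with the striated muscle score as a covariate.

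Casq2, calsequestrin, the calcium store protein of cardiac and some smooth muscle, was at 10.13, 10.23, 10.13 and 10.21 after adrenalectomy, against 10.13, 10.46, 10.49 and 9.99 in sham samples. The groups differed on the log2 scale by -0.09, and 0.14 without the 3 samples. Hspb6, a small heat shock protein that is a target of relaxing kinases, was at 10.94, 10.94, 10.94 and 11.05 after adrenalectomy, against 11.09, 11.53, 11.53 and 11.19 in sham samples. The groups of Hspb6 did not overlap, and sham 2 and sham 3 were highest. Its log2 difference was -0.37 ± 0.10 (SE, limma adjusted p = 0.112), and -0.16 ± 0.06 (SE) without the 3 samples.

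**Figure D4:**
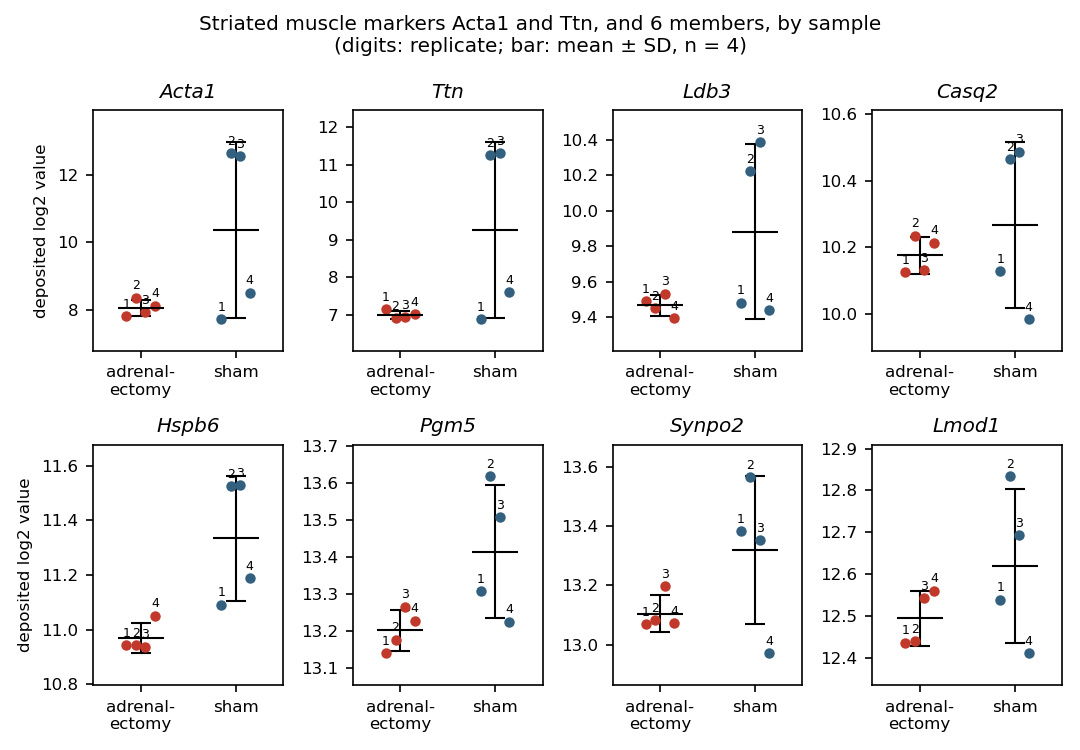
Deposited log2 values of the striated muscle markers Acta1 and Ttn and of 6 members in each adrenalectomy sample (left, red) and sham sample (right, blue), with replicate numbers and the mean ± SD of 4 samples. Acta1 is at 12.65 and 12.55 in sham 2 and sham 3, which are also the highest sham samples for Ldb3, Casq2, Hspb6, Pgm5 and Lmod1, and for Synpo2 sham 2 is highest and sham 1 second.

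Pgm5, Synpo2 and Synm had sham 2 highest and sham 4 lowest among sham samples. Pgm5, aciculin, a partner of dystrophin at adhesion sites, was at 13.14 to 13.27 after adrenalectomy, against 13.31, 13.62, 13.51 and 13.23 in sham samples 1 to 4. The log2 difference of Pgm5 was -0.21 (limma adjusted p = 0.217), and -0.04 without the 3 samples. Synpo2, myopodin, an actin-bundling protein of muscle, was at 13.07 to 13.20 after adrenalectomy, against 13.38, 13.56, 13.35 and 12.97 in sham samples. The gene's log2 difference was -0.21 (limma adjusted p = 0.337), and -0.06 without them. Synm, the intermediate filament protein synemin, was at 13.84 to 14.01 after adrenalectomy, against 14.23, 14.26, 14.13 and 13.95 in sham samples, with a log2 difference of -0.21 (limma adjusted p = 0.177), and -0.12 without them.

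The adhesion and cytoskeletal genes that many cell types share did not pass. Vcl, vinculin, which couples integrins to actin, differed by -0.02 ± 0.034 (SE, limma adjusted p = 0.781), and by 0.0019 without the 3 samples, although exons of Vcl share 2090 bases with a gene on the opposite strand. Actn1, an alpha-actinin that crosslinks actin, differed by -0.01, Flna, filamin A, by -0.07, the LIM protein gene Csrp1 by -0.06, Pdlim7 by -0.0078 and Pdlim3 by -0.10. Without the 3 samples Actn1 differed by 0.05, Flna by 0.03, Csrp1 by -0.03, Pdlim7 by 0.01 and Pdlim3 by -0.0100. Itga8, an integrin subunit of smooth muscle and other mesenchymal cells, was at 9.95 to 10.08 after adrenalectomy and 10.06 to 10.30 in sham samples, with a log2 difference of -0.14 (limma adjusted p = 0.264), and -0.04 without the 3 samples.

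The ion channel genes did not pass either. Cacna1c, the pore of the L-type calcium channel that starts contraction, was at 11.38, 11.47, 11.36 and 11.28 after adrenalectomy, against 11.45, 11.57, 11.48 and 11.31 in sham samples, with overlapping groups. This gave a log2 difference of -0.08 ± 0.060 (SE, limma adjusted p = 0.493), and -0.01 without the 3 samples. Kcnmb1, the smooth muscle beta subunit of the large-conductance potassium channel, which brakes contraction, was at 10.31 to 10.46 after adrenalectomy and 10.36 to 10.66 in sham samples. The groups differed on the log2 scale by -0.11, and 0.0058 without the 3 samples.

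Of the regulators, Myocd, myocardin, was at 9.09, 9.09, 9.19 and 9.24 after adrenalectomy, against 9.34, 9.40, 9.27 and 9.19 in sham samples. Adrenalectomy 4 reached above sham 4. On the log2 scale the difference was -0.15 ± 0.059 (SE, limma adjusted p = 0.227), and -0.09 without the 3 samples. Srf was at 12.19, 12.16, 12.32 and 12.10 after adrenalectomy, against 12.20, 12.32, 12.16 and 11.99 in sham samples, and its log2 difference was 0.02 ± 0.072 (SE, limma adjusted p = 0.879), and 0.10 without the 3 samples.

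Genes around the contractile machinery were read from lists chosen by role. Of 17 factors linked to SRF or to visceral muscle, 1 rose and 0 fell, where 0.93% of all tested genes rose and 0.782% fell. Their median log2 difference was -0.02, and -0.0015 without the 3 samples. The riser was Mkl1, which encodes MRTF-A, the actin-sensing partner of SRF. It was at 12.34, 12.36, 12.40 and 12.38 after adrenalectomy, against 12.17, 12.24, 12.18 and 12.17 in sham samples, with no overlap. The log2 difference of Mkl1 was 0.18 ± 0.02 (SE, limma adjusted p = 0.0223), and 0.21 without the 3 samples. Its call was lost with any 1 of adrenalectomy 2, 3 and 4, sham 3 and sham 4 left out (limma adjusted p = 0.0573 to 0.0890). Elk4, a ternary complex factor that binds DNA together with SRF, differed by -0.14 (limma adjusted p = 0.143), and by -0.16 without them.

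Of 26 adhesion and dystrophin complex genes, 2 fell and 0 rose, against the same 0.782% and 0.93%. Their median was -0.05, and 0.0090 without the 3 samples, where 12 means were lower and 14 higher. Dystrophin (Dmd) and its relative utrophin (Utrn) link the actin cytoskeleton to the membrane and matrix. Utrn was at 13.53, 13.50, 13.53 and 13.54 after adrenalectomy, against 13.73, 13.71, 13.69 and 13.70 in sham samples. Its log2 difference was -0.18 ± 0.02 (SE, limma adjusted p = 0.0100), and -0.19 without the 3 samples, and its call held with each single sample left out. Dmd was at 11.99 to 12.03 after adrenalectomy and 12.14 to 12.22 in sham samples, a log2 difference of -0.18 ± 0.02 (SE, limma adjusted p = 0.0223), and -0.18 without the 3 samples. The call of Dmd held only without adrenalectomy 1 or without sham 1, and leaving out any other 1 sample gave a limma adjusted p of 0.0579 to 0.0804. Both genes are expressed outside muscle too, and the groups of neither gene overlapped. Tln2, a talin that activates integrins, differed by 0.12 (limma adjusted p = 0.109), and by 0.13 without the 3 samples.

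Among 16 receptors and relaxant enzymes, 2 fell and 0 rose, against 0.782% and 0.93% of all tested genes. The median was -0.04, and 0.0081 without the 3 samples, where 8 means were lower and 8 higher. Tacr2, the tachykinin receptor through which enteric nerves contract the muscle, was at 9.67, 9.63, 9.82 and 9.75 after adrenalectomy, against 9.92 to 10.03 in sham samples, without overlap. The log2 difference was -0.26 ± 0.05 (SE, limma adjusted p = 0.0433), and -0.25 without the 3 samples. Leaving out any 1 sample ended the call of Tacr2, with a limma adjusted p of 0.0516 to 0.111. Ednrb, an endothelin receptor of several cell types, was at 9.87 to 9.97 after adrenalectomy and 10.11 to 10.24 in sham samples (log2 difference -0.23 ± 0.04 SE, limma adjusted p = 0.0418), and -0.17 without the 3 samples. The Ednrb call held with sham 1 left out and was lost with any other 1 sample left out (limma adjusted p = 0.0748 to 0.121). Ednra, the other endothelin receptor, differed by 0.23 (limma adjusted p = 0.1002), and by 0.22 without them.

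Of 16 calcium handling genes and 20 genes of calcium sensitization, 0 were called in either direction by limma, with medians of -0.08 and -0.03, and of -0.05 and -0.0096 without the 3 samples. At an unadjusted p under 0.05, 6 of the calcium handling genes were lower and 1 was higher, and 2 of the sensitization genes were lower and 0 higher, where 9.48% of all tested genes were lower and 9.73% higher. Without the 3 samples, 3 of the calcium handling genes were lower and 1 higher, and 0 of the sensitization genes were lower and 1 higher, against 5.53% and 5.26%. Orai1, the pore of store-operated calcium entry, was at 10.41 to 10.47 after adrenalectomy and 10.15 to 10.30 in sham samples (log2 difference 0.20, limma adjusted p = 0.0523, and 0.20 without the 3 samples). Cacna1h, a T-type calcium channel pore, was at 10.70 to 10.80 after adrenalectomy and 10.87 to 11.03 in sham samples (log2 difference -0.21, limma adjusted p = 0.0606, and -0.17 without them). Ppp1cb, the catalytic subunit of myosin phosphatase, differed by -0.11 (limma adjusted p = 0.192), and by -0.12 without them.

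Non-muscle counterparts of the contractile genes were not lower as a list with all 8 samples. Of 15 such genes, the cytoplasmic actins, myosins, tropomyosins, calponins and filamins among them, limma called 0 in either direction. At an unadjusted p under 0.05, 0 were lower and 1 was higher, against 9.48% and 9.73% of all tested genes. Means were higher after adrenalectomy in 10 and lower in 5, where 50.5% of tested genes had lower means. The list also held Flnc, a filamin of muscle, which differed by -0.08, and by 0.10 without the 3 samples. The median of the 15 genes was 0.03, against -0.12 for the members, and 0.01 against -0.04 without the 3 samples. The largest was Cnn2, a calponin of non-muscle cells, at 0.13 (limma adjusted p = 0.239), and 0.22 without the 3 samples. With the striated muscle score as a covariate, the median was -0.0057 for the 15 genes and -0.04 for the members. In that fit 9 of the 15 genes had lower means, against 50.4% of all tested genes. These medians are descriptions, and their difference was not tested.

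On plain log counts, a ratio of 2 genes within a sample does not depend on scaling between samples. The transformation of the deposited values is not given, so this may not hold exactly here. Of 15 pairs, 13 set a muscle gene against a non-muscle counterpart and 2, Tpm2 to Tpm1 and Actg2 to Acta2, set a member against another. Of the 15, 3 had adrenalectomy samples entirely below sham samples, Myh11 to Myh9, Myh11 to Myh10 and Tpm2 to Tpm1, and the pairs share genes. Myh11 and Tpm2 were themselves called lower without overlap, so these ratios are not separate from those calls. How often other gene pairs separate in this way was not computed. Myh11 minus Myh9, whose product is the non-muscle myosin IIA heavy chain, was 1.35, 1.47, 1.41 and 1.39 on the log2 scale after adrenalectomy, against 1.57, 1.91, 1.73 and 1.76 in sham samples. The mean difference of that ratio was -0.34, and -0.24 without the 3 samples. Tagln minus Tagln2 was -0.14, -0.19, -0.26 and -0.33 after adrenalectomy, against -0.23, 0.09, 0.09 and 0.22 in sham samples, where sham 1 lay among the adrenalectomy samples.

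**Figure D5:**
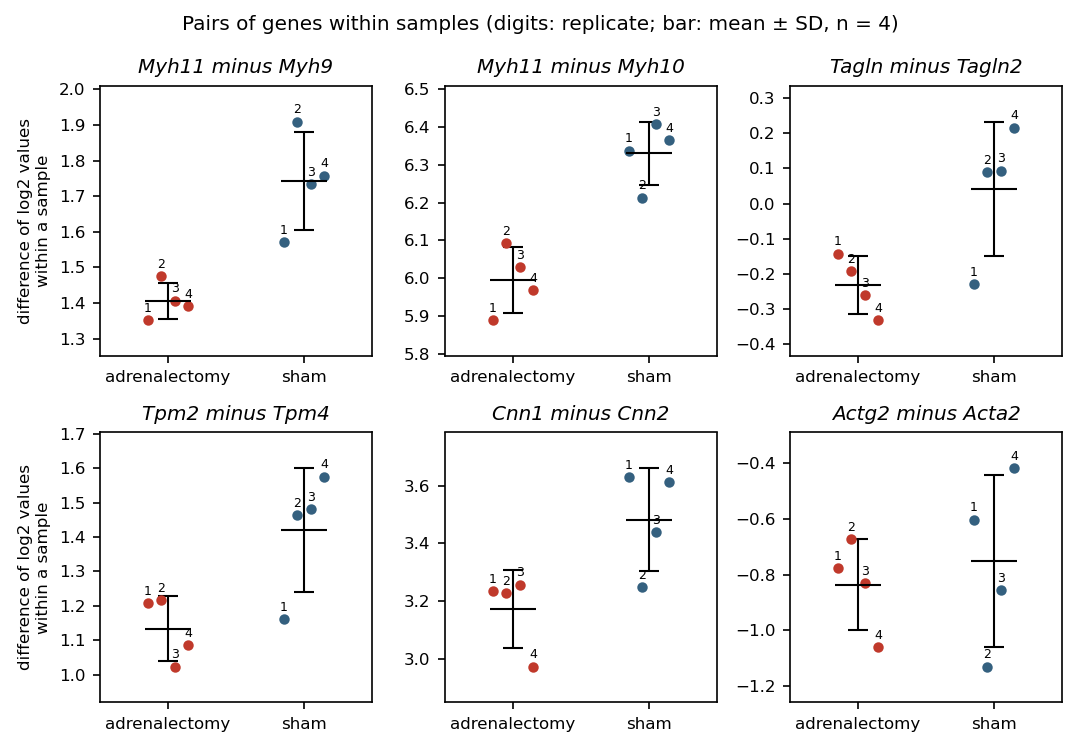
Difference of log2 values within each sample for 6 of the 15 gene pairs, adrenalectomy samples left (red) and sham samples right (blue), with replicate numbers and the mean ± SD of 4 samples. The groups are apart for Myh11 against Myh9 and Myh10, and overlap for Tagln against Tagln2, Tpm2 against Tpm4, Cnn1 against Cnn2 and Actg2 against Acta2.

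Markers of the other cells of the stomach were read beside these results. Of 4 markers of interstitial cells of Cajal, the pacemakers of gastric muscle, and of 12 enteric neuron, 6 enteric glia, 10 pericyte and 10 endothelial markers, limma called 0 in either direction. Their median log2 differences were -0.05, -0.03, -0.03, 0.02 and 0.02 in that order, and without the 3 samples -0.05, -0.11, -0.03, 0.06 and 0.07. The enteric neuron markers had lower means in 8 of 12 genes with all samples and in 12 of 12 without the 3 samples. Over all tested genes, means were lower in 50.5% and 53% in those fits. At an unadjusted p under 0.05, 1, 1, 1, 2 and 1 of the markers in that order were lower, against 9.48% of all tested genes. In the same order 1, 0, 1, 0 and 3 were higher, against 9.73%.

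Of 12 fibroblast markers, 1 rose and 0 fell, where 0.93% of all tested genes rose and 0.782% fell, and 8 had higher means. Their median log2 difference was 0.08, and 0.03 without the 3 samples. The gene that rose was Fbln1, named here after its values were seen, which encodes fibulin-1 of the extracellular matrix. Fbln1 was at 13.01, 13.04, 13.06 and 13.10 after adrenalectomy, against 12.80, 12.91, 12.74 and 12.77 in sham samples, without overlap (log2 difference 0.25 ± 0.039 SE, limma adjusted p = 0.0310, and 0.28 without the 3 samples). Its call held without sham 1 or without sham 2 and was lost with any other 1 sample left out (limma adjusted p = 0.0628 to 0.0982). Among 9 gastric epithelium, 8 adipocyte and 6 tested duodenum markers, limma called 0, with medians of -0.03, 0.07 and -0.0077, and of -0.09, 0.17 and -0.11 without the 3 samples. At an unadjusted p under 0.05, 0, 0 and 1 of these were lower and 0, 1 and 1 higher. Over all tested genes, 9.48% were lower and 9.73% higher at that threshold. The mean log2 value over the 33 members was 13.47 to 13.54 after adrenalectomy and 13.50 to 13.71 in sham samples. The part of each of these cell types in the result was not tested.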

How the data were processed

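Stomach RNA of 4 adrenalectomy and 4 sham samples was sequenced on an Illumina instrument, per the labels' protocols. The submitters' processing notes name Trim Galore, STAR, featureCounts, DESeq2 and the mm9 build, without versions. Per the labels and file header, the authors deposited normalized log2 values. Their transformation is not given in the sources used here, and differences of low genes may be understated. Depth is unknown, so no counting interval was computed. A further 8 sample columns were not used, and 26 rows whose names had become dates were left out.

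Members were matched by exact gene name. Genes with a mean linear value of at least 10 entered the test (16889), and 7592 did not. limma (version 3.58.1, R 4.3.3) fitted group as the only term, with an intensity trend. P-values are two-sided, and calls used a Benjamini-Hochberg adjusted p under 0.05 across every gene tested. The code was tested on simulated data. Members and lists were chosen with earlier results of these data known. All members are named or accounted for, and of the pathway lists each gene past the threshold and up to 2 others by smallest p. Marker lists are given by counts and medians, with the defining genes of the tissues that set samples apart and the 1 fibroblast marker past the threshold. In all, 19 alternative settings were tried, among them leaving out samples, other filters, variance models, scalings and covariates. CArG boxes were searched in Python 3.11.15.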

Additional observations from a re-analysis of the deposited data

Results flagged for a closer look

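Of 66 groups of 4 samples, 33 members in each of the 2 groups, 3 held a sample set far apart from the other 3 by Dixon's criterion (gap over range above 0.829), and chance alone sets apart about 1 in 20 groups. Des was at 15.35 in adrenalectomy 4, against 15.51 to 15.54 in the other adrenalectomy samples. Synpo2 was at 13.20 in adrenalectomy 3, against 13.07 to 13.08 in the others. Hspb6 was at 11.05 in adrenalectomy 4, against 10.94 in the other adrenalectomy samples.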

How the results depend on the processing

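With all 8 samples limma called 289 genes, 3 members lower and 0 higher, with a member median of -0.12. Leaving out 1 sample at a time gave 27 to 633 genes, 0 to 5 members lower, 0 higher and a median of -0.16 to -0.06. The 633 genes and 5 members were without sham 1, and each of the other 7 single samples left out gave 0 members. Without adrenalectomy 1, sham 2 and sham 3 there were 0 genes (1822 at an unadjusted p under 0.05), 0 members and a median of -0.0355. The striated muscle score as a covariate gave 4 genes, 0 members and a median of -0.0386, and the squamous score 24 genes and 0 members. Array quality weights gave 624 genes and 5 members, quantile normalization 0 members, and median centring 156 genes and 1 member. With no filter on low values there were 170 genes, and 1 of the 3 member calls was lost. A block for replicate number gave 4 genes and 0 members. The deviations of same-numbered samples correlated at -0.29, 0.45, -0.12 and -0.63. The labels do not say whether the numbers pair samples. These correlations cannot decide it, because markers of other tissues also differed between samples. The cause of these changes was not tested.

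Of 33 members, 20 kept the sign of their difference in all 19 settings, and 13, none of them called, changed it in at least 1. Without adrenalectomy 1, sham 2 and sham 3, the log2 difference was 0.0043 for Acta2, 0.039 for Lmod1, 0.026 for Flna, 0.0019 for Vcl, 0.051 for Actn1, 0.012 for Pdlim7, 0.14 for Casq2 and 0.0058 for Kcnmb1. With the striated score it was 0.0024 for Acta2, 0.028 for Lmod1, 0.017 for Flna, 0.047 for Actn1, 0.042 for Ldb3, 0.13 for Casq2 and 0.014 for Kcnmb1. With the squamous score it was 0.015 for Actn1 and 0.051 for Casq2. Array weights gave 0.0035 for Pdlim7 and -0.046 for Ppp1r14a, quantile normalization 0.0050 for Myl6 and -0.013 for Ppp1r14a, and median centring -0.012 for Ppp1r14a. With 1 sample left out at a time, the difference ran from -0.060 to 0.0049 for Tpm1, -0.048 to 0.0015 for Myl6, -0.045 to 0.00091 for Vcl, -0.046 to 0.012 for Actn1, -0.048 to 0.026 for Pdlim7, -0.034 to 0.075 for Srf and -0.074 to 0.088 for Ppp1r14a. The settings were also run for 13 genes of the other lists, a choice made after seeing the data, and 0 of these changed sign. Depth is unknown and 4 samples per group limit the precision.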
